A study of Mus musculus with 12 samples.

Results

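Complex I, the NADH:ubiquinone oxidoreductase of the mitochondrial inner membrane, was followed through the transcripts of its nuclear-encoded subunits in kidneys of mice that lack methylmalonyl-CoA mutase. The members were 35 listed subunit genes. A gene was measured where a probe set of the array was annotated with its symbol alone, and the brightest such probe set stood for it. This gave 34 subunits of the 19934 genes on the arrays. Ndufb4 was left without a value because both of its probe sets also carry the symbol of its copy Ndufb4b.

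Whole kidneys of 12 female C57BL/6 mice were profiled on 1 Affymetrix mouse gene array each, after 2 months on a high-protein diet that all groups received. Females were chosen because more of them outlived the diet, so the mice are survivors. The mutants (Mut -/- ;TgINS-Alb-Mut, n = 4) lacked Mut, the gene now named Mmut, and carried a Mut transgene built on the albumin promoter, which is active in liver. The controls were heterozygotes (Mut+/-, n = 4) and wild-type mice (Mut+/+, n = 4). The labels used here name the transgene in the mutants alone and give no age, so transgene and loss of the enzyme cannot be told apart. Mmut measured 8.20 to 8.47 on the log2 scale in mutants, 9.87 to 9.97 in heterozygotes and 10.47 to 10.60 in wild-type mice (exact permutation p = 0.0286 for each pair of groups, the smallest 4 against 4 can give). Whether its probes also read the transgene was not determined. All 10 proximal tubule markers were measured and bright, with means from 10.87 to 13.26. In whole tissue, fewer cells of a type and less RNA per cell cannot be told apart.

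Complex I takes electrons from NADH in the mitochondrial matrix and passes them through a flavin and a chain of iron-sulphur clusters to ubiquinone, while its membrane arm pumps protons. Conserved core subunits carry out the catalysis, and accessory subunits surround and stabilise them. Core subunits of the membrane arm are encoded by mitochondrial DNA, and the remaining subunits are imported from the cytosol and joined with the help of assembly factors. Proximal tubule cells are rich in mitochondria and depend on respiration for reabsorption.

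In mutants against wild-type mice, 6 of the 34 subunits (17.6%) differed in limma's test at an adjusted p under 0.05. The membrane-arm subunits Ndufc1 and Ndufc2 and the matrix-arm subunits Ndufa2 and Ndufs7 fell, and the matrix-arm subunits Ndufa6 and Ndufa7 rose. All differences were small, between 1.17-fold and 1.36-fold. Over all genes 9.66% were called, 2.96% higher and 6.69% lower, against 5.88% and 11.8% of the subunits. The subunits are bright probe sets, with means from 8.19 to 12.63. Among the 7356 genes with a mean at least that of the dimmest subunit 17.9% were called, 5.10% higher and 12.8% lower, close to the shares among the subunits. The median subunit difference was -0.06 on the log2 scale, against 0.00 over all genes and -0.04 over the equally bright ones. At an unadjusted p under 0.05 there were 16 subunits (47.1%), 5 higher and 11 lower, against 24.4% of all genes, 9.25% higher and 15.2% lower. The equally bright genes were not counted at this threshold, so an excess among the subunits cannot be read from these shares.

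**Figure D1:**
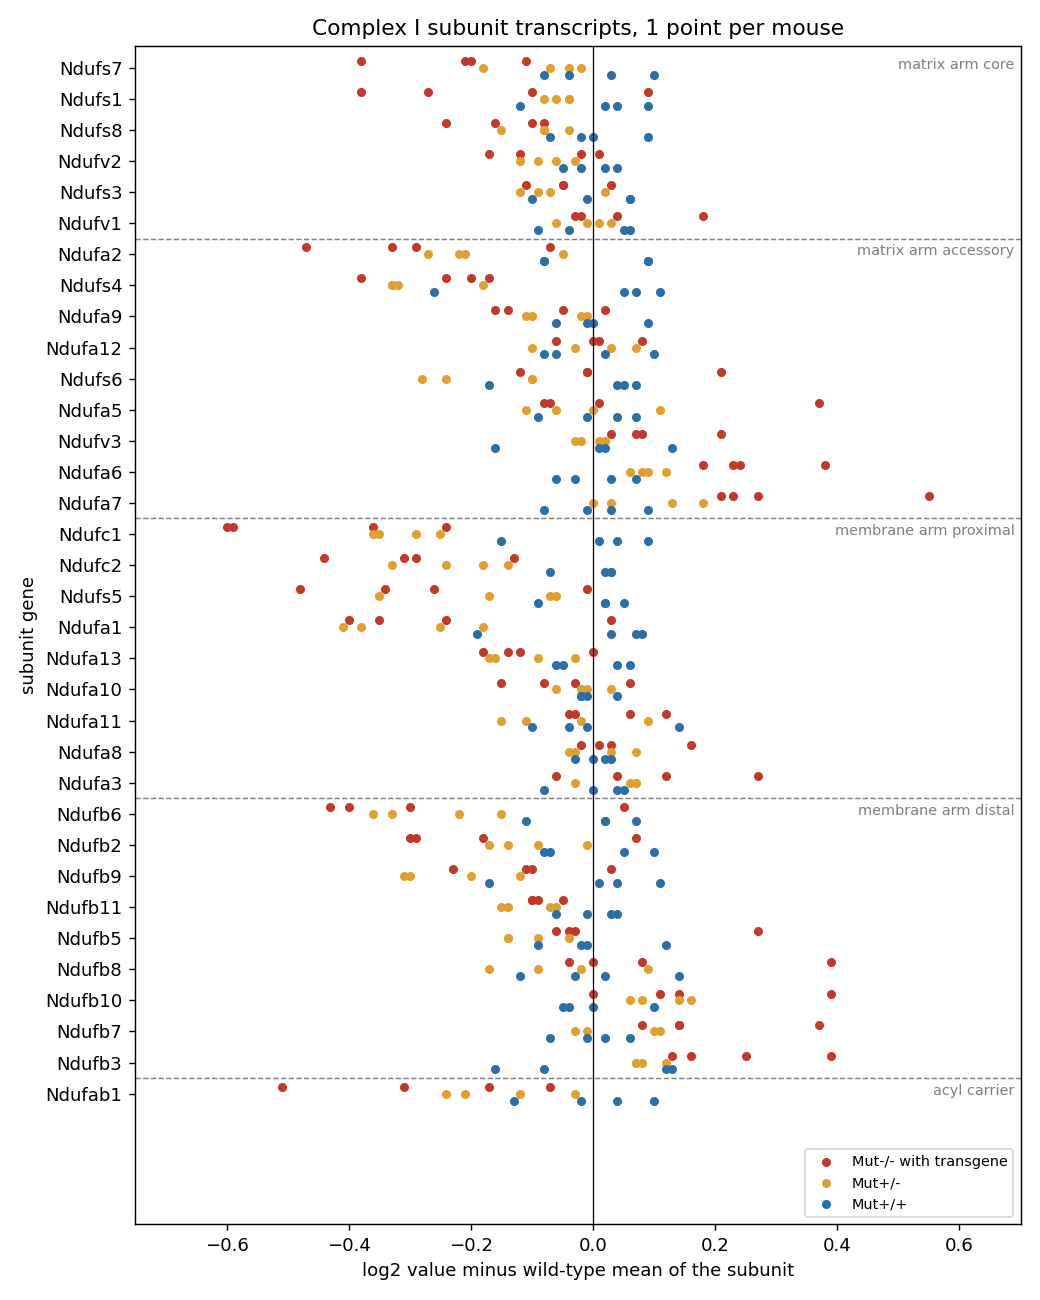
Each point is 1 mouse, and its position on the x axis is the log2 value of a subunit minus that subunit's wild-type mean. Rows are grouped by the place of the subunit in the complex. Ndufc1 and Ndufc2 lie left of all wild-type mice in every mutant, while Ndufa6 and Ndufa7 lie right of them.

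The 250 bases before the RefSeq start (GRCm38.p6) are shown for 3 subunits. These are the ones whose calls between mutant and wild type held under each of 20 alternative analyses. Motif matches are in capitals. Ndufc1 is read from chr3:51408956-51409205 (minus strand), Ndufc2 from chr7:97399753-97400002 (plus strand) and Ndufa6 from chr15:82354292-82354541 (minus strand).
Ndufc1: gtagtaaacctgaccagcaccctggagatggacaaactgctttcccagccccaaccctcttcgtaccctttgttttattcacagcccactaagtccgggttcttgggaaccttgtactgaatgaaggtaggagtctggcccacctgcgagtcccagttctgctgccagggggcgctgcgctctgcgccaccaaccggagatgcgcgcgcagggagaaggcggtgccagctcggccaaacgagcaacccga
Ndufc2: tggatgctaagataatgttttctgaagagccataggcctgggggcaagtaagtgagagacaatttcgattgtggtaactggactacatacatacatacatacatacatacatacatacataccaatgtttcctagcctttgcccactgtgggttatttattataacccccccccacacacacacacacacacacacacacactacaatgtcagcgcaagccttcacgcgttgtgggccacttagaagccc
Ndufa6: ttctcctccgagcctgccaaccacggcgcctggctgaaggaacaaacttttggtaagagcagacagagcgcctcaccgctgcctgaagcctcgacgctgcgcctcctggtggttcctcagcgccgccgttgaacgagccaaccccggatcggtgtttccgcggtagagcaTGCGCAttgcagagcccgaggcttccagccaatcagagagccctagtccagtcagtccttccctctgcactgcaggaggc
The motifs searched on both strands were the GC box GGGCGG, the ETS site CCGGAAG, the palindromic core TGCGCA of nuclear respiratory factor 1 sites, the ERR half-site AAGGTCA, the YY1 core AAGATGG and the E-box CACGTG, none of which contains another. Neither falling subunit held a match in this window, and Ndufa6 held the TGCGCA core 80 bases before its start. Windows were found for 31 of the 34 subunits. TGCGCA occurred in 6 of these (19.4%), against 9.19% of 17491 protein-coding genes and 7.36% of all 27025 genes in the table. The GC box occurred in 13 (41.9%, against 45.8% of protein-coding genes and 35.4% of all), the ETS site in 3 (9.68%, against 10.2% and 7.83%) and the ERR half-site in 2 (6.45%, against 4.18% and 4.70%). The E-box occurred in 2 (6.45%, against 7.61% and 6.86%), and AAGATGG in 0 of 31, against 4.77% and 5.18%. A match is a run of letters, not a bound site.

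Among the accessory subunits of the proximal membrane arm, the part next to the matrix arm, 2 of 9 fell and none rose, with a median difference of -0.11. For comparison, 6.69% of all genes and 12.8% of the equally bright ones were called lower, and 2.96% and 5.1% higher. Ndufc1, a small subunit with a single membrane span, measured 10.87, 11.06, 11.03 and 11.11 in wild-type replicates 1 to 4 and 10.67, 10.77, 10.66 and 10.73 in heterozygotes. The mutants measured 10.78, 10.43, 10.42 and 10.66. All 4 mutants and all 4 heterozygotes lay below every wild-type mouse, and mutants and heterozygotes overlapped. The mutant mean of 10.57 ± 0.18 (SD, n = 4) was 1.36-fold below the wild-type mean of 11.02 ± 0.11 (log2 difference -0.45, SE 0.08, adjusted p = 0.00471). A second probe set annotated with Ndufc1 showed the same separation, with mutants from 9.84 to 10.26, wild-type mice from 10.30 to 10.49 and a difference of -0.40. Both probe sets carry the same transcript accessions, and where each lies in the genome was not determined.

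Ndufc2, which sits beside Ndufc1 in the membrane, measured 12.73, 12.83, 12.83 and 12.82 in wild-type mice, 12.47, 12.56, 12.62 and 12.66 in heterozygotes and 12.67, 12.49, 12.36 and 12.51 in mutants. Again every wild-type mouse was above all mice of the other groups. The mutants were 1.23-fold below wild type (log2 difference -0.30, SE 0.06, adjusted p = 0.0115). Ndufs5, on the intermembrane side of the same arm, ran from 7.85 to 8.32 in mutants and 8.24 to 8.38 in wild-type mice, a difference of -0.27 that did not pass (adjusted p = 0.0803). Ndufa1, another small membrane subunit, had a difference of -0.24 (adjusted p = 0.126). Ndufa3 had the highest difference of the 9, 0.09 (adjusted p = 0.43). Ndufa8, Ndufa10, Ndufa11 and Ndufa13 lay between -0.11 and 0.04.

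In the core of the matrix arm, 1 of 6 subunits fell and none rose, with a median of -0.11. The shares were 6.69% lower and 2.96% higher over all genes, and 12.8% and 5.1% over the equally bright ones. Ndufs7, which holds the last iron-sulphur cluster before ubiquinone, measured 12.30, 12.47, 12.48 and 12.57 in mutants and 12.60, 12.64, 12.71 and 12.78 in wild-type mice. These groups did not overlap. The heterozygotes, at 12.50, 12.64, 12.61 and 12.66, overlapped both. This was a fall of 1.17-fold (log2 difference -0.23, SE 0.06, adjusted p = 0.0377). Ndufs8, the neighbouring iron-sulphur subunit, was also apart without passing, at 10.88 to 11.04 in mutants and 11.05 to 11.21 in wild-type mice (log2 difference -0.15, adjusted p = 0.09). Ndufv1, which binds NADH and the flavin, had the highest difference of the core, 0.05 (95% interval -0.08 to 0.17). Ndufs1, Ndufs3 and Ndufv2 had differences of -0.17, -0.05 and -0.07, and none passed.

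The accessory subunits of the matrix arm went both ways, with 2 of 9 risen, 1 fallen and a median of 0.02. Over all genes 2.96% were called higher and 6.69% lower, and over the equally bright ones 5.1% and 12.8%. Ndufa6, a subunit of the LYR family that anchors a copy of the acyl carrier protein, measured 11.43, 11.23, 11.28 and 11.29 in mutants, 11.17, 11.11, 11.13 and 11.14 in heterozygotes and 10.99, 11.12, 11.08 and 11.02 in wild-type mice. Every mutant was above every mouse of the other groups. It was 1.19-fold higher than in wild type (log2 difference 0.25, SE 0.05, adjusted p = 0.00893). Ndufa7 measured 10.50, 10.22, 10.18 and 10.16 in mutants, 10.13, 10.08, 9.95 and 9.98 in heterozygotes and 9.98, 10.04, 9.94 and 9.87 in wild-type mice. Again all mutants were highest, with replicate 1 well above the other mutants, and the rise was 1.24-fold (log2 difference 0.31, SE 0.07, adjusted p = 0.0203).

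Ndufa2, a thioredoxin-like subunit of the same arm, measured 9.80, 9.58, 9.40 and 9.54 in mutants, 9.66, 9.82, 9.60 and 9.65 in heterozygotes and 9.79, 9.96, 9.96 and 9.79 in wild-type mice. Mutant replicate 1 lay within the wild-type range and the other mutants below it. The fall was 1.23-fold (log2 difference -0.30, SE 0.08, adjusted p = 0.0334). Ndufs4, a subunit needed for a stable matrix arm, had a difference of -0.25 (adjusted p = 0.0668). Ndufa5, Ndufa9, Ndufa12, Ndufs6 and Ndufv3 lay between -0.09 and 0.10.

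None of the 9 measured subunits of the distal membrane arm passed, against 9.66% of all genes and 17.9% of the equally bright ones. Their median was 0.03. Ndufb3 and Ndufb7 had the highest differences, 0.23 (adjusted p = 0.0617) and 0.19 (adjusted p = 0.0939). Ndufb7, an intermembrane-space subunit, ran from 9.32 to 9.61 in mutants and from 9.17 to 9.30 in wild-type mice, so its groups did not overlap. Ndufb6 had the lowest, -0.27 (adjusted p = 0.0869), with mutant replicate 1 at 11.60 among the wild-type mice and the other mutants from 11.12 to 11.25. The remaining 6 lay between -0.17 and 0.16. Ndufab1, the mitochondrial acyl carrier protein that is bound in both arms, had a difference of -0.26 (adjusted p = 0.0754), with the same value in its second probe set.

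In all, 7 subunits (20.6%) had mutants and wild-type mice fully apart, 4 lower and 3 higher, against 14.7% of all genes (9.40% lower, 5.35% higher) and 25.1% of the equally bright ones (17.4% lower, 7.68% higher). For the 28 subunits that were not called, the 95% interval of the difference reached at most 0.47 in size on the log2 scale (Ndufb6), with a median limit of 0.24.

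**Figure D2:**
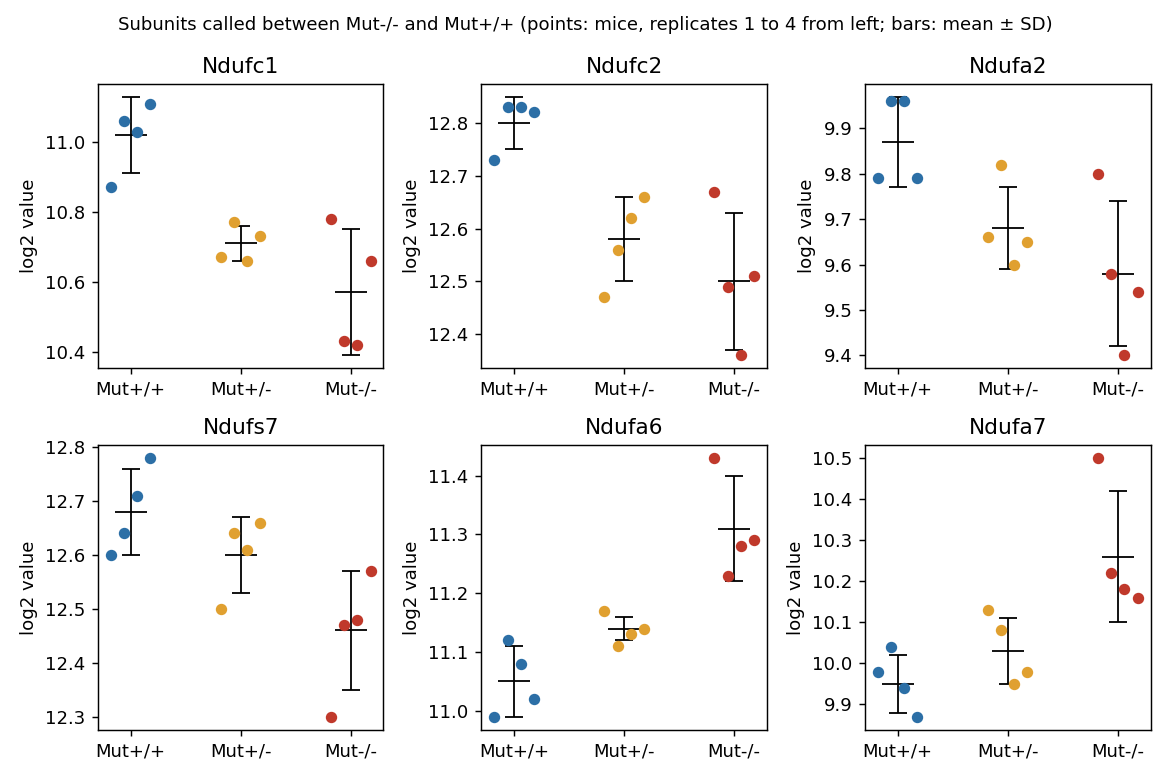
Log2 values of the 6 subunits called between mutants and wild-type mice, 1 point per mouse with replicates 1 to 4 from left to right, and bars for the mean ± SD of 4 mice. Each y axis has its own range and does not start at 0. Mutant replicate 1 is the highest mutant in 5 panels and the lowest for Ndufs7.

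Several of these calls, though not the direction or rough size of the differences, depended on single arrays. Those of Ndufc1, Ndufc2 and Ndufa6 held whichever of the 12 arrays was left out, with adjusted p up to 0.0206, 0.0376 and 0.0326. The call of Ndufa7 ended without wild type replicate 3 (log2 difference 0.30, adjusted p = 0.0515) or 4 (0.28, adjusted p = 0.0695). That of Ndufa2 ended without any 1 of 6 arrays, mutant or wild type replicates 2, 3 and 4, with differences from -0.32 to -0.24 and adjusted p up to 0.0995. That of Ndufs7 ended without any 1 of 7 arrays, mutant replicates 1, 2 and 3, heterozygote replicate 3 and wild type replicates 2, 3 and 4, with differences from -0.24 to -0.18 and adjusted p up to 0.12. Without wild type replicate 3 or 4, 3 subunits were called in all, and without mutant replicate 2 or 3 or wild type replicate 2, 4 were. Quantile normalization of the values of the 19934 genes, 1 probe set each, gave 4 higher and 2 lower subunits in place of 2 and 4.

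Mutant replicate 1 stood apart from the other mutants across the complex. It was the highest mutant for 30 of the 34 subunits (88.2%), against 23.3% of all genes and 33.5% of the equally bright ones, and the highest of all 12 mice for 14. Its median deviation from the 12-array mean of each subunit was 0.14, against -0.08, -0.06 and -0.02 in mutant replicates 2, 3 and 4. The exceptions were Ndufa11, Ndufb11, Ndufs7 and Ndufv3. Wild type replicate 1 stood at the other end of its group, as the lowest wild-type mouse for 23 subunits, against 24.0% of all genes and 38.1% of the equally bright ones.

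**Figure D3:**
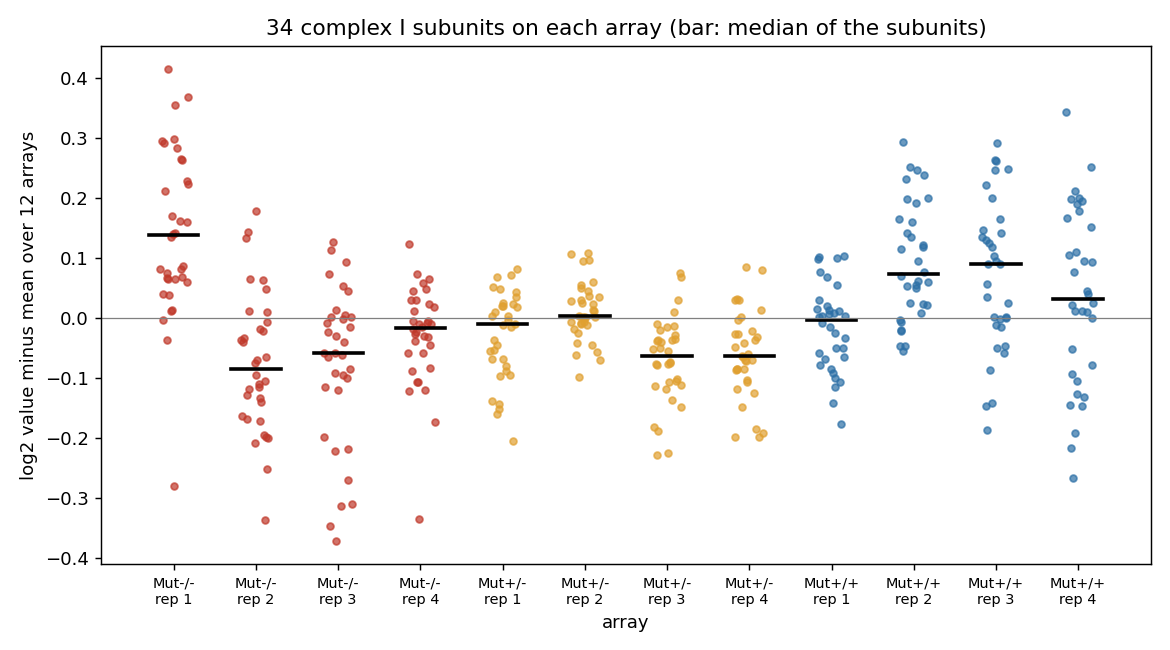
Each point is 1 of 34 subunits on 1 array, plotted as its log2 value minus its mean over the 12 arrays, and the black bar is the median of the subunits. Mutant replicate 1 has a median of 0.14, above every other array, and the remaining mutants lie between -0.08 and -0.02.

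Without mutant replicate 1, 11 subunits were called between mutants and wild-type mice, 9 lower and 2 higher, against 6.68% of all genes lower and 2.99% higher. The median subunit difference was then -0.08, and 13.2% of the equally bright genes were called lower. Ndufa1, Ndufab1, Ndufb2, Ndufb6, Ndufs1 and Ndufs5 joined the lower subunits, and Ndufs7 left them (adjusted p = 0.0804). Among these, Ndufb6 had a difference of -0.37 (adjusted p = 0.00456), and Ndufs5 had -0.36 (adjusted p = 0.0144). Ndufc1 moved to -0.52 (adjusted p = 0.00183). Ndufa6 and Ndufa7 stayed higher, at 0.21 and 0.23 (adjusted p = 0.0181 and 0.0281). The labels give no reason to leave this mouse out. It was singled out by its high values of these same subunits, so leaving it out lowers most of their mutant means by construction. The larger number of falls therefore cannot be weighed against the shares over other genes.

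**Figure D4:**
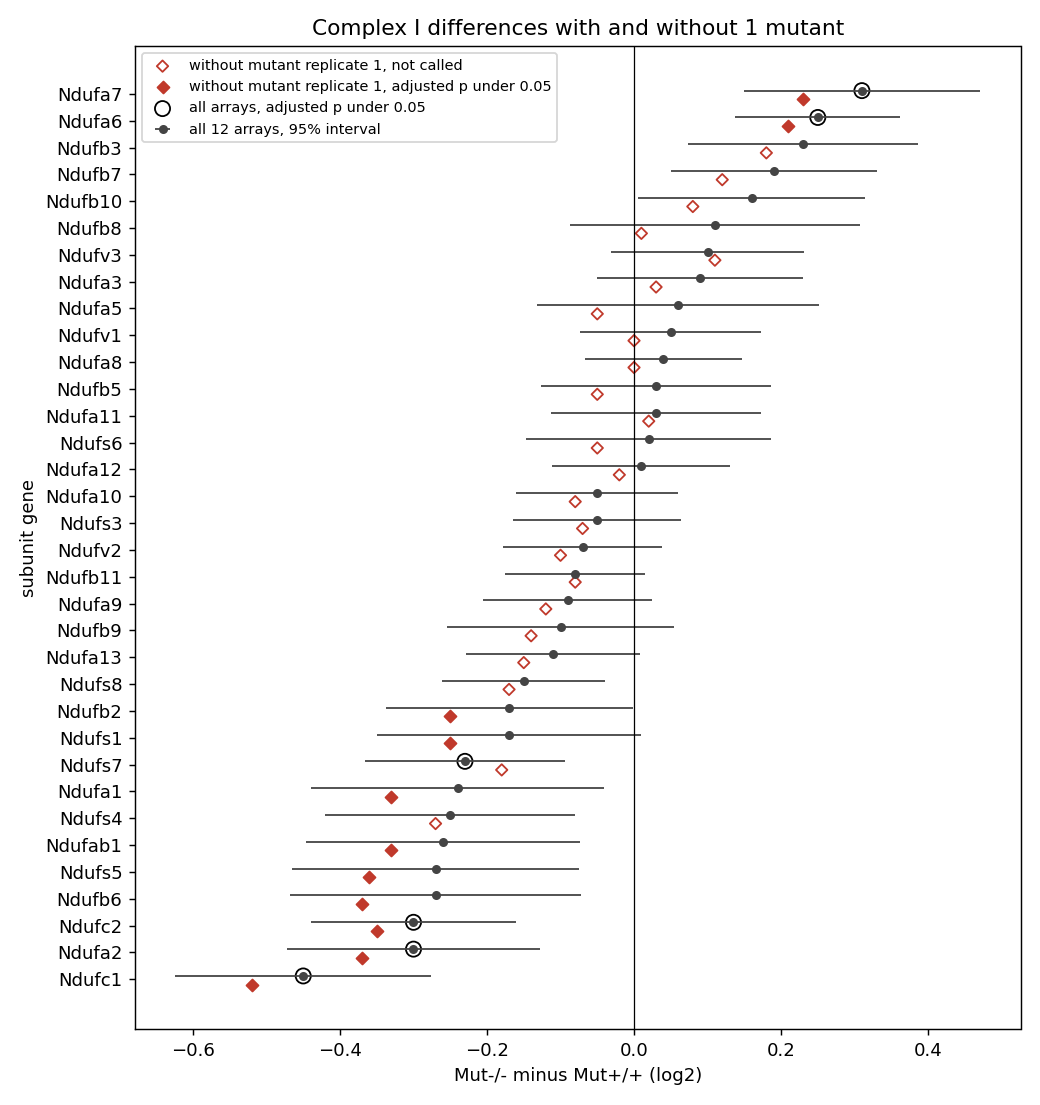
Mutant minus wild-type difference of each subunit on the log2 scale with all 12 arrays (circles with 95% intervals, ringed where called) and without mutant replicate 1 (diamonds, filled where called). The called falls grow from 4 to 9 while the 2 called rises remain. Replicate 1 was singled out by its high values of these subunits, so most differences are lower without it by construction.

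Mutant replicate 1 was also highest among mutants for 36 of 39 measured subunits of complexes II to V (92.3%) and for 11 of 19 complex I assembly factors (57.9%). The shares were 23.3% over all genes and 33.5% over the equally bright ones for this mutant. Its summed log2 level over the 10 proximal tubule markers was 122.4, against 117.5 to 121.8 in the other mutants, 122.7 to 123.4 in heterozygotes and 123.2 to 123.5 in wild-type mice. Most of the gap between mutants and wild type in this sum came from Kap, an androgen-regulated tubule gene, at -2.65 (adjusted p = 0.000405). Cubn, an endocytic receptor, was the only other called marker of the 10 (-0.36, adjusted p = 0.00401), and the median difference was -0.04. Without Kap the sums overlapped, at 107.8 to 110.9 in mutants, 109.8 to 110.1 in heterozygotes and 109.9 to 110.2 in wild-type mice. Over the 7 leukocyte markers it had the lowest sum of the mutants, 55.6 against 55.9 to 60.7, where heterozygotes had 55.4 to 60.1 and wild-type mice 54.5 to 56.1. Over 5 measured markers of the distal convoluted and connecting tubule it had 51.2, against 46.1 to 51.0 in the other mutants, 51.9 to 52.9 in heterozygotes and 52.7 to 52.9 in wild-type mice. The sums of the 7 markers of the proximal tubule's S3 segment ran from 63.2 to 68.3 in mutants, 68.8 to 69.2 in heterozygotes and 69.4 to 70.1 in wild-type mice. Of these markers 5 were called lower in mutants than in wild type, while Slc7a13 went the other way (0.52, adjusted p = 0.0971). Without Slc22a7 (-1.52) the S3 sums met, at 55.6 to 59.0 in mutants, 58.9 to 59.1 in heterozygotes and 59.0 to 59.6 in wild-type mice. The sums of 6 endothelial markers ran from 52.8 to 55.1, 55.2 to 56.3 and 55.9 to 57.0, while 6 thick ascending limb markers (68.2 to 69.2, 68.5 to 69.3 and 68.8 to 69.3) and 6 collecting duct markers (57.0 to 58.8, 57.6 to 58.0 and 57.3 to 58.1) overlapped. Without their lowest marker the mutants stayed below wild type in the distal sums (38.2 to 41.8 against 42.8 to 43.0) and endothelial sums (42.6 to 44.2 against 44.8 to 45.5). Mutant replicate 3 had the lowest sum of the mutants in each of these lists but the leukocyte one. It was the lowest mutant for 9 of 10 proximal tubule, 6 of 7 S3, 4 of 5 distal, 5 of 6 endothelial and 5 of 6 collecting duct markers. For the thick ascending limb it was lowest for only 2 of 6 markers, and for leukocytes for 3 of 7. Over all genes it was the lowest mutant for 24.9%, and over the equally bright ones for 37.3%. Its share of the subunits, 12 of 34 (35.3%), was close to the latter, and mutant replicate 2 was lowest for more of them, 14. The part of these cell types in the subunit differences was not tested.

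Heterozygotes were set against wild-type mice to ask whether 1 intact Mut allele leaves these transcripts at the wild-type level. None of the 34 subunits was called by limma, where 0.135% of all genes and 0.136% of the equally bright ones were. At an unadjusted p under 0.05 there were 9, all lower in heterozygotes (26.5%, against 11.3% of all genes in either direction and 6.81% lower). The share of the equally bright genes at this threshold was not counted. The median difference was -0.07, against 0.01 over all genes and -0.03 over the equally bright ones. The heterozygote mean was below wild type for 27 of the 34 subunits and for 9371 of all 19934 genes. The equally bright genes were not counted in this way. Subunits measured in the same mice are not separate observations. The lowest differences were those of Ndufc1 (-0.31, adjusted p = 0.177), Ndufa1 (-0.31, adjusted p = 0.241) and Ndufs4 (-0.29, adjusted p = 0.202). Ndufb6, Ndufb11, Ndufc1 and Ndufc2 had all heterozygotes below all wild-type mice, 11.8% of the subunits. In either direction 8.44% of all genes and 13.6% of the equally bright ones were apart, and 5.26% and 10.1% were apart with heterozygotes lower. Ndufs4 was called without wild type replicate 1 (adjusted p = 0.0337) and Ndufc1 with array weights (adjusted p = 0.0463).

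Between mutants and heterozygotes, again none of the subunits was called by limma, against 2.54% of all genes and 4.51% of the equally bright ones. At an unadjusted p under 0.05 there were 4 (11.8%), 3 higher and 1 lower, against 15.4% of all genes, 6.30% higher and 9.11% lower. Here too the equally bright genes were not counted. The median difference was 0.03, against -0.01 over all genes, and was -0.02 without mutant replicate 1. The arrays were apart for 4 subunits, Ndufa6, Ndufa7, Ndufb3 and Ndufv3, all higher in mutants (11.8%). In either direction 9.69% of all genes and 16.5% of the equally bright ones were apart, and 4.04% and 6.97% were apart with mutants higher. The 3 comparisons share samples in pairs and are not independent. The heterozygote mean lay between the other groups for 19 subunits, including the 6 called ones. Those 6 were selected for a wide gap between mutant and wild type, which makes a mean in between likely. It lay below both groups for 15, among them Ndufs6 (9.66, against 9.86 in mutants and 9.84 in wild-type mice) and Ndufb9 (11.07, against 11.20 and 11.30). The order of the means was not counted over all genes.

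Of 11 further complex I genes listed, 2 were measured, the mitochondrially encoded ND3 (log2 difference 0.13 between mutant and wild type, adjusted p = 0.224) and Ndufa4, now counted with cytochrome c oxidase (-0.03, adjusted p = 0.872). Of 19 measured assembly factors 3 fell and none rose, where 6.69% of all genes were called lower and 2.96% higher. Among genes as bright as the subunits 12.8% were lower and 5.1% higher, though some factors are dimmer than those genes. Their median was -0.12, with a range from -0.33 to 0.08. Mutant replicate 3 was the lowest mutant for 14 of the 19 (73.7%), against 24.9% of all genes. It had a median deviation of -0.21 against -0.05 to 0.03 in the other mutants. Without it the median was -0.06 and 1 factor, Ndufaf1, was called. Ndufaf1, a factor of the membrane-arm assembly complex, fell 1.26-fold from 9.49 ± 0.07 to 9.16 ± 0.15 (log2 scale, SD, n = 4, adjusted p = 0.00921). Lyrm2 and Dmac1 each fell 1.17-fold (adjusted p = 0.0351 and 0.0328). Ndufaf1 was called whichever array was left out, and was also the only factor called without wild type replicate 2 or 4. Of 39 subunits of complexes II to V, 4 rose and 2 fell, with a median of 0.02. Over all genes 2.96% were called higher and 6.69% lower, and 5.10% and 12.8% of the equally bright ones. The rises were led by the ATP synthase gene Atp5l (0.58, adjusted p = 0.002) and the cytochrome c oxidase gene Cox4i1 (0.42, adjusted p = 0.000614), and the falls by the complex III gene Uqcrb (-0.42, adjusted p = 0.00279). Without mutant replicate 1, the highest mutant for most of these genes, the falls numbered 5 and the median was -0.03. Uqcrb was the only fall called without any 1 of 8 arrays, mutant replicates 2 and 3, heterozygote replicates 1, 3 and 4 and wild type replicates 2, 3 and 4. Whether complex I differs from the other complexes was not tested.

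By RefSeq's gene positions, 5 of the 34 subunits lie on the same chromosome as Mmut, where alleles near the disrupted gene can be inherited with it. Their differences between mutant and wild type were 0.31 for Ndufa7, 0.16 for Ndufb10, 0.10 for Ndufv3, 0.03 for Ndufa11 and -0.07 for Ndufv2. The part of such alleles was not tested.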

How the data were processed

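Each deposited value is the log2 signal of a probe set. The submitters' processing notes name RMA and version 1.2.1 of Affymetrix Expression Console. RMA equalises array distributions, so shifts shared by most genes are removed, and it compresses differences near background. The table held 35552 probe sets on 12 arrays. Groups came from the sample titles.

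Probe sets with 1 symbol in the platform annotation were kept and the brightest taken per gene, giving 19934 genes. All 3 groups were fitted together with limma 3.58.1 (lmFit, eBayes) in R 4.3.3, leaving 9 residual degrees of freedom. Benjamini-Hochberg adjustment ran over all genes, and calls needed an adjusted p under 0.05. The tests weigh differences against the variation among mice of a group, 1 array each. The fit was tested on simulated data. Array medians lay between 7.17 and 7.23, and 4 arrays a group limit the precision.

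The members, lists and alternatives were chosen with earlier results of these data known. Named with values are called members, the extremes of each structural group, members whose mutants and wild-type mice did not overlap, and called genes of the other lists, up to 4 a list. Members named beyond this rule were chosen after their values were seen. Alternatives were the replicate block, omission of each array, a filter that kept genes reaching 6 in some group's mean, averaged probe sets per gene, only the groups compared, quantile normalization, centred medians, array weights and a trended, robust prior. The set of equally bright genes, the other lists with each array left out and the marker sums without their lowest gene were added after seeing the data. Sequences are from RefSeq, GRCm38.p6.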

Additional observations from a re-analysis of the deposited data

Results flagged for a closer look

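Single mice stood far from the rest of their group for 6 of the 102 combinations of subunit and group, where chance gives about 1 in 20. Mutant replicate 1 had the highest value of Ndufb5, 10.79 against 10.46 to 10.49 in the other mutants. Wild type replicate 1 had the lowest values of Ndufs4, 11.27 against 11.58 to 11.64, and of Ndufs6, 9.67 against 9.88 to 9.91. Wild type replicate 2 had the highest value of Ndufa10, 11.66 against 11.60 to 11.61. Heterozygote replicate 2 had the highest values of Ndufs4, 11.35 against 11.20 to 11.21, and of Ndufb3, 8.31 against 8.26 to 8.27.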

How the results depend on the processing

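Ndufc1, Ndufc2 and Ndufa6 were called between mutant and wild type under each of the 20 alternatives, with log2 differences from -0.52 to -0.39, -0.35 to -0.23 and 0.21 to 0.30. Ndufa7 was called under 17, Ndufa2 under 11 and Ndufs7 under 10, and Ndufb3, not called with all arrays, under 6. With each array left out in turn, 3 to 11 subunits were called, 1 to 3 higher and 2 to 9 lower, and between heterozygote and wild type 0 to 1, all lower. With only the groups compared in the fit, the mutants had 3 called subunits against wild type (1 higher and 2 lower). Quantile normalization gave 4 higher and 2 lower. Array weights gave 1 called subunit between heterozygote and wild type, which was lower. The cause of these shifts was not tested. With the replicate number as a block 3 were higher and 3 lower, without Ndufa2 and with Ndufb3. Same-numbered arrays showed no strong shared deviation from their group means, with correlations from -0.239 to 0.168. The labels name no pairing of mice, and these correlations cannot tell whether there was one. No subunit was called between mutant and heterozygote under any alternative. Over the alternatives the median difference ran from -0.08 to -0.02 between mutant and wild type and from -0.1 to -0.04 between heterozygote and wild type. Between mutant and heterozygote it ran from -0.02 to 0.05. These moves were smaller than the spread between mice, a loose limit, since a change of sign also met it. The number of arrays limits what can be called: the smallest called difference was 0.23 in size, and differences up to 0.27 were not called.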

Other observations

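The mutants varied more than the controls in these transcripts. Over the 34 subunits the median SD was 0.122 among mutants, 0.067 among heterozygotes and 0.075 among wild-type mice, on the log2 scale with n = 4 each. The SD was largest in mutants for 26 subunits (76.5%), against 48.3% of all genes and 55.0% of the equally bright ones. Without replicate 1 the median SD among the other 3 mutants was 0.065, while over the equally bright genes it went from 0.092 to 0.086. Replicate 1 was singled out by its high values of these same subunits, so leaving it out lowers their SD by construction. The contrast with the equally bright genes therefore cannot show how the other mutants vary.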
